A study of Mus musculus with 18 samples.

Results

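The 39 type I interferon-stimulated genes described here were followed in mouse bone marrow cultures. They were taken by name from a list of antiviral effectors, sensors, signalling proteins and a chemokine, and all 39 were found by symbol among the 55536 gene IDs of the count files through the GENCODE M21 annotation. Marrow came from BALB/c mice, either wild type (WT) or described by the labels as Cysltr1 deficient. Cysltr1 is the type 1 receptor for cysteinyl leukotrienes, a family of lipid mediators. Every culture ran for 4 days in GM-CSF at 40 ng/mL, which drives the growth of granulocytes and macrophages. Cultures had nothing else added, IL-6 at 40 ng/mL (an inflammatory cytokine acting through STAT3), or conditioned medium (50% v/v) taken from EMT6 cells, a mouse mammary carcinoma line, after 24 h. The 6 groups held 3 libraries each, made from poly(A) RNA. Each sample pooled the marrow of 3 mice. The labels do not say whether the 3 samples of a group came from separate pools, so p-values measure the spread between these samples. Cysltr1 itself stood at 57.6 to 62.7, 80.0 to 81.6 and 3.91 to 4.19 CPM (counts per 1000000 gene counts) in WT libraries with GM-CSF, IL-6 and EMT6 medium, and at 75.1 to 78.6, 87.6 to 90.7 and 6.19 to 9.12 CPM in those labelled deficient. It was higher, not lower, in the labelled-deficient libraries (0.35 ± 0.06 (SE), adjusted p = 2.88e-06, with GM-CSF on the log2 scale), and a count over the whole gene does not check which exons the allele lacks. The text therefore writes labelled-deficient, and each direction by genotype follows the labels. The cultures hold several cell types, and a bulk level cannot tell fewer cells of a type from less RNA per cell.

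Type I interferons are secreted proteins that bind the receptor pair IFNAR1 and IFNAR2. The kinases JAK1 and TYK2 then switch on a transcription factor complex, with STAT2 and IRF9 among its subunits, that binds the interferon-stimulated response element (ISRE) of target genes. The targets include sensors of viral RNA (RIG-I-like receptors), proteins that block viral RNA or protein synthesis (IFIT, OAS and PKR), the ubiquitin-like ISG15 with its protease, and membrane proteins that hold back virus entry or release. Myeloid cells make and answer interferons, and several of these genes can also be switched on through IRF3 or IRF7 without the receptor. The questions here were which of these genes responded to IL-6 and to EMT6 conditioned medium, and whether the genotype changed their levels or those responses.

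Libraries held 9.58 to 32.0 M counts (M, mega) in annotated genes. Levels are CPM after TMM scaling, which sets libraries to a common level on the assumption that most genes do not change. Fold changes are log2, from a quasi-likelihood test in edgeR fitted to all 18 libraries and 28334 genes. A gene was called at an adjusted p under 0.05. The standard error (SE) was worked back from that test, as the absolute fold change over the square root of its F statistic. It is thus approximate, and can understate counting error for genes with few counts in a group. All 39 members passed the filter on low counts. EMT6 medium libraries stood apart: reads in no annotated feature made up 34.7% to 37.5% of the total in WT and 50.1% to 50.4% in labelled-deficient ones, against 12.8% to 20.5% elsewhere. Olfactory and vomeronasal receptor genes, 1740 in all, took a mean of 0.0911% of gene counts in the WT and 0.193% to 0.206% in the labelled-deficient EMT6 medium libraries, against 0.0148% to 0.0348% elsewhere. By the calls, the assumption of TMM was not met with EMT6 medium. In WT 46.8% of genes were called higher and 34.5% lower, and in labelled-deficient marrow 54.3% and 32.9%. Fold changes there depend on the scaling. Scaling by library sizes alone moved the median gene up by 0.49 on the log2 scale for EMT6 medium in WT, by 0.61 in labelled-deficient marrow and by 0.24 for the genotype within EMT6 medium. Members whose direction turned with the scaling are named beside their values. Neutrophil marker genes were summed at 8725 to 9847 CPM in WT GM-CSF libraries and 1624 to 1906 in WT EMT6 medium libraries, and at 3947 to 4210 and 954 to 1219 CPM in labelled-deficient ones. The part of cell composition in the changes below was not tested.

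Promoter sequences of the members were searched for the ISRE. RefSeq sequences of 300 bases around the annotated start (build GRCm38.p6, from the reference strain and not from BALB/c) were on hand for 28 of the 39 members, in 33 promoters. The core of the ISRE was searched as GAAANNGAA on both strands, overlaps allowed. It was found for 17 of the 28 members (60.7%), against 9.76% of 27025 genes. The gamma-activated site, TTCNNNGAA, was found for 6 of 28 members (21.4%) and 9.55% of genes, and 4 members held both, with overlapping letters in Bst2 and Ifitm3. A match describes letters in the window, not binding. The 6 promoters below, with matches in capitals, were picked by response, to show genes with and without a rise side by side: genes that rose strongly with EMT6 medium and hold 3 matches (Isg15, Ifit1, Ifit3) or 1 (Rsad2), and a pair that hold matches and did not rise (Ifih1, Stat2).
Isg15 (chr4:156200769-156201068, minus strand): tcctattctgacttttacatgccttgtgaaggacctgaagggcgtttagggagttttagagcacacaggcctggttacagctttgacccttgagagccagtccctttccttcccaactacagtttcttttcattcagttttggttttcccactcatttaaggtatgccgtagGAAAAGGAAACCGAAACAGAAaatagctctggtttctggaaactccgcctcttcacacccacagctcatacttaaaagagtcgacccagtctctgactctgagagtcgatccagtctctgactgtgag
Ifit1 (chr19:34640639-34640938, plus strand): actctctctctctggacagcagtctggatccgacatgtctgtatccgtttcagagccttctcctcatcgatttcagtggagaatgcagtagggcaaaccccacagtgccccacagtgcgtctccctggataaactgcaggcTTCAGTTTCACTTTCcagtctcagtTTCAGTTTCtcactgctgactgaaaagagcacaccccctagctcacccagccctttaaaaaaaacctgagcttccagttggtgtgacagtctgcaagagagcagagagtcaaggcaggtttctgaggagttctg
Ifit3 (chr19:34583279-34583578, plus strand): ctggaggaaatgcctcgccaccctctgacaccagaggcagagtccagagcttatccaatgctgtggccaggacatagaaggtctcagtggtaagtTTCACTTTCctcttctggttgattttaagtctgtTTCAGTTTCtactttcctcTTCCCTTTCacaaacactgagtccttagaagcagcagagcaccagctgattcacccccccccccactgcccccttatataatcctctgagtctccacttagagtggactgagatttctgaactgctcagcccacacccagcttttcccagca
Rsad2 (chr12:26456403-26456702, minus strand): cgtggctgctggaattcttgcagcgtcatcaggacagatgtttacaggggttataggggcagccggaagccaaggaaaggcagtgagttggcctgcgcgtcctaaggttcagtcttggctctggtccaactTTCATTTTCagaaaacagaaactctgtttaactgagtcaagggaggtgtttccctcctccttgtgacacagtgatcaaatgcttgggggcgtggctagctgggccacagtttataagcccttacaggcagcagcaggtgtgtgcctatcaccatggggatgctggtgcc
Ifih1 (chr2:62646206-62646505, minus strand): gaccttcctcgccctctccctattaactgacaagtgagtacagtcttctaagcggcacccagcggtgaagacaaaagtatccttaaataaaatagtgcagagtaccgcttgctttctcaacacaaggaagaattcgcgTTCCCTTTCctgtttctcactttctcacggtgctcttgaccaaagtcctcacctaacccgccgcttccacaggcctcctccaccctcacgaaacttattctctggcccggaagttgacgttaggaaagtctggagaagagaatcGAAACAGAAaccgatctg
Stat2 (chr10:128270248-128270547, plus strand): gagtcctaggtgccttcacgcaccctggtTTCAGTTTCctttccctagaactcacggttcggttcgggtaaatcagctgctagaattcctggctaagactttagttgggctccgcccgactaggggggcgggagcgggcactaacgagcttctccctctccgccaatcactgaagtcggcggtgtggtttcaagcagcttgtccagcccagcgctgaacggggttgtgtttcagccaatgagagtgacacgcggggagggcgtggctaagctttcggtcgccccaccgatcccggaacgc
In Isg15 the 3 matches run into each other, and the nearest upstream match begins 66 bases before the start. It begins 84 bases before the start in Ifit1, 102 in Ifit3, 119 in Rsad2, 112 in Ifih1 and 221 in Stat2, and the other match of Ifih1 lies after the start. The promoter of Ifit3b shares a run of 169 bases with that of Ifit3, including its 3 matches.

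Under GM-CSF alone the members spanned a wide range of levels. Per length (TPM, the level scaled to exon length, as group means), the membrane protein gene Ifitm3, whose product blocks fusion of entering viruses, was first with 2056 TPM in WT marrow. Bst2 (tetherin, which holds budding virus at the cell surface) followed with 192 TPM, Lgals3bp (a secreted glycoprotein) with 112 and Ifi27l2a with 67.2. At the other end were Ifit3b with 0.0504, Ifit3 with 0.186, Ifi44 with 0.361 and Mx2 with 0.540 TPM. In WT EMT6 medium cultures Ifitm3 (2574 TPM) and Bst2 (1102) kept the first ranks, followed by Ifi27l2a (1012), Isg15 (261) and Lgals3bp (249). TPM is not TMM-scaled, so it ranks genes within a culture and does not compare cultures. The TMM-scaled mean of Ifitm3 was 558 CPM under GM-CSF and 518 with EMT6 medium. Rsad2 moved from rank 32 under GM-CSF to rank 6 with 209 TPM, and Ifit2 from rank 27 to 7 with 132 TPM. Summed over the 39 members, the level was 1536 to 1595 CPM in WT GM-CSF, 1470 to 1531 in WT IL-6 and 3475 to 3638 in WT EMT6 medium libraries. In labelled-deficient marrow it was 1309 to 1334, 1379 to 1435 and 2488 to 2613 CPM. The EMT6 medium libraries lay above all others in both genotypes, and the WT ones above the labelled-deficient ones. Ifitm3 made up a large part of these sums. Without it they were 972 to 1044, 1016 to 1059 and 2971 to 3104 CPM in WT with GM-CSF, IL-6 and EMT6 medium. In labelled-deficient marrow they were 927 to 935, 1002 to 1051 and 2150 to 2222 CPM.

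**Figure D1:**
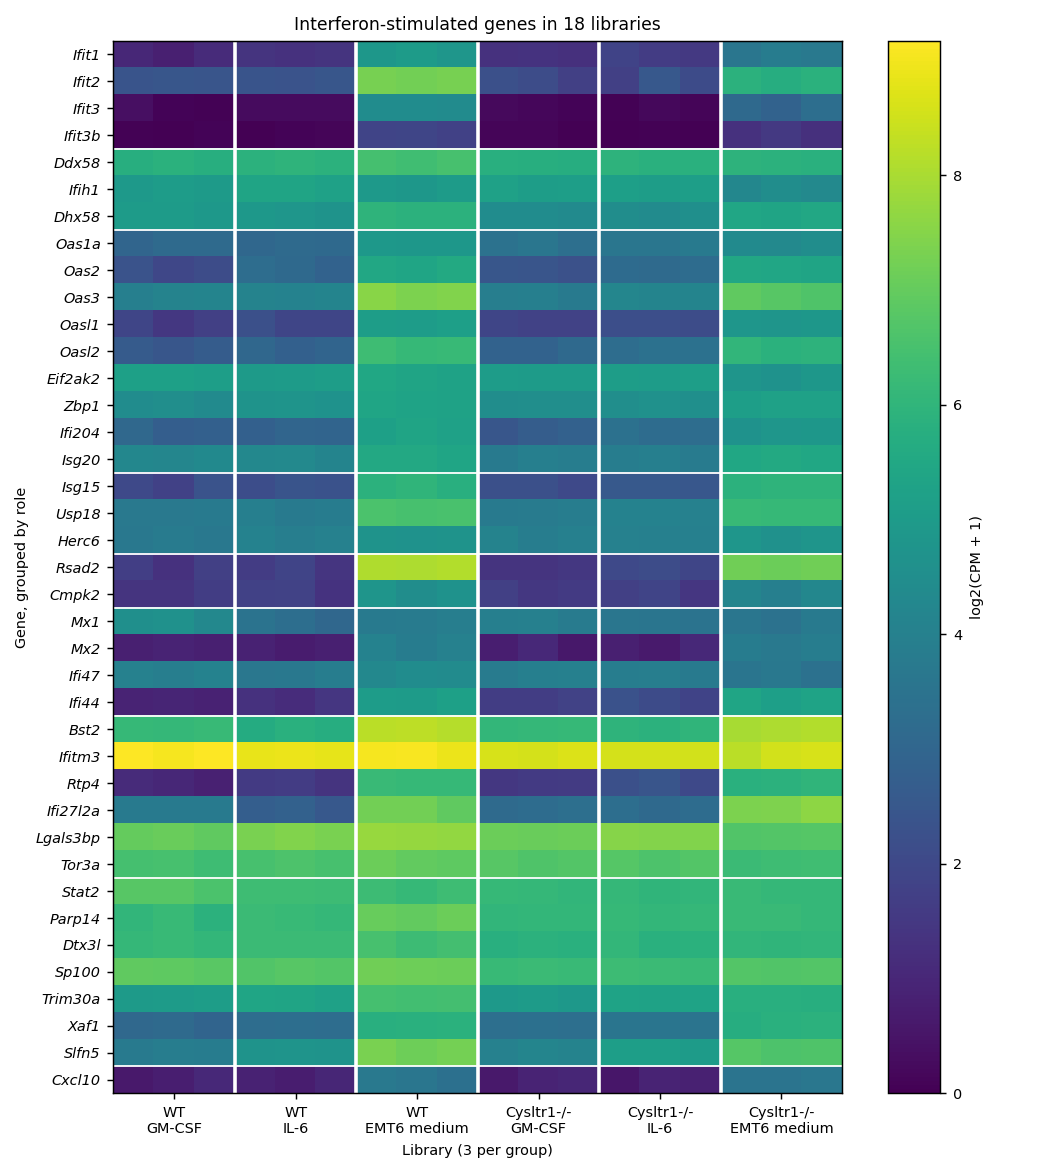
Levels of the 39 genes, as log2(CPM + 1), in each of the 18 libraries (columns, 3 per group) with genes in rows grouped by role. The 2 blocks of EMT6 medium libraries are brighter for the IFIT genes, the OAS genes, Isg15, Rsad2 and Rtp4, while Ifitm3 is bright in all libraries.

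With EMT6 medium in WT marrow, 35 of the 39 members were called higher and 2 lower (Mx1 and Stat2), and Ifih1 and Ifitm3 were not called. Of all genes tested, 46.8% were called higher and 34.5% lower in this comparison. The median of the members was 2.55, that of all genes tested 0.49 and that of the 11170 genes with a mean of at least 5 CPM -0.59. Of the 35 members, 26 rose at least 2-fold, and no share of all genes is given for that cut. The other scalings, filters, tests and fits with a library left out kept 32 of the 35 calls. Eif2ak2, Dtx3l and Sp100 were the exceptions.

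The IFIT genes, whose products bind foreign RNA and block its translation, sit side by side on chromosome 19 (34550694 to 34650009, mm10), and all 4 rose. Ifit2 stood at 4.17, 4.47 and 4.34 CPM in the WT GM-CSF libraries and at 158, 148 and 156 in the EMT6 medium libraries, a log2 fold change of 5.15 ± 0.09 (SE), adjusted p = 2.43e-38. Ifit3 went from 0.291, 0.0629 and 0.0365 to 20.9, 21.1 and 20.6 CPM (7.31 ± 0.23 (SE), adjusted p = 1.15e-29). This was the largest change among the members, from a level near 0. The WT GM-CSF libraries held 8 counts of Ifit3 in all, so its SE can understate counting error. Ifit1 went from 1.02, 0.755 and 1.20 to 27.7, 31.5 and 27.3 CPM (4.80 ± 0.14 (SE), adjusted p = 3.94e-31). Ifit3b, a near copy of Ifit3 whose reads the counting could divide uncertainly, had 3 counts over the WT GM-CSF libraries and 146 over the EMT6 medium libraries. The ratio of its summed CPM was 55.1 (95% exact binomial interval 18.5 to 270.2, counting error only).

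Rsad2 (viperin, a radical SAM enzyme that makes a chain-terminating nucleotide) and Cmpk2 (a mitochondrial nucleotide kinase) are neighbours on chromosome 12 (26442746 to 26456452 and 26469204 to 26479837, mm10), read in opposite directions, and both rose. Rsad2 was at 2.23, 1.45 and 2.30 CPM under GM-CSF and at 269, 261 and 275 with EMT6 medium, 7.02 ± 0.09 (SE), adjusted p = 3.43e-44. No other member had a smaller p in this comparison. Cmpk2 went from 1.60, 1.57 and 2.15 to 26.3, 21.7 and 24.5 CPM, a log2 fold change of 3.73.

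Of the 3 RNA sensors, 2 rose, each by less than 2-fold. Ddx58 (RIG-I) went from 52.8, 56.6 and 52.7 to 86.8, 82.0 and 88.9 CPM, a log2 fold change of 0.67, and Dhx58 (LGP2, a regulator of the other sensors) from 31.4, 32.0 and 28.8 to 61.9, 59.0 and 58.9, a change of 0.97. Ifih1 (MDA5), which senses long double-stranded RNA, was at 29.7, 32.2 and 31.0 CPM without and 29.5, 28.0 and 32.2 with EMT6 medium. Its libraries overlapped and it was not called (-0.05 ± 0.07 (SE), adjusted p = 0.522). The 2 ISRE matches in its promoter are printed above.

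All 9 effectors of nucleic acid sensing were called higher, with log2 fold changes from 0.20 to 3.86. The oligoadenylate synthetases make the second messenger that switches on RNase L, and Oasl1 is a relative that holds back IRF7 translation. Oasl2 rose from 5.19, 4.53 and 5.33 to 80.0, 70.0 and 71.2 CPM (3.86 ± 0.09 (SE), adjusted p = 2.85e-35) and Oasl1 from 2.77, 1.82 and 2.30 to 33.5, 32.5 and 35.4 (3.86 ± 0.11 (SE), adjusted p = 2.43e-31). Oas2 rose by 3.67, Oas3 by 3.46 and Oas1a, a member of a family of near copies, by 1.86. Ifi204, a DNA-binding protein from a cluster of close relatives, rose by 2.55, Isg20 (an exonuclease) by 1.26 and Zbp1, a sensor of Z-form nucleic acids that can start necroptosis, by 0.90. Eif2ak2 (PKR, which stops translation on double-stranded RNA) changed least, from 36.3, 36.3 and 34.0 to 43.1, 40.2 and 38.4 CPM, a log2 fold change of 0.20.

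In the ISG15 system, the ubiquitin-like modifier Isg15 rose from 3.11, 2.39 and 4.09 to 58.2, 63.9 and 53.6 CPM (4.13 ± 0.10 (SE), adjusted p = 6.07e-34). Usp18, which removes ISG15 from proteins and dampens IFNAR signalling, rose from 12.2, 12.1 and 12.7 to 94.9, 89.5 and 91.6 CPM (2.89 on the log2 scale). Herc6, the mouse ligase that attaches ISG15, went from 11.9, 13.1 and 11.8 to 25.5, 24.5 and 25.5 CPM, a change of 1.05. The 3 libraries of each culture were apart for all 3 genes.

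The GTPase group went both ways. Mx2 rose from 0.728, 0.881 and 0.730 to 15.8, 13.5 and 15.3 CPM (4.27 ± 0.17 (SE), adjusted p = 1.33e-25), while its neighbour Mx1 was at 22.9, 23.8 and 18.3 and 12.4, 13.1 and 14.1 CPM (-0.70 ± 0.10 (SE), adjusted p = 2.11e-08). The Mx GTPases trap viral nucleocapsids, and most laboratory mouse strains carry defective Mx alleles. The annotation lists Mx2 as a polymorphic pseudogene. With a filter at a mean of 5 CPM the fall of Mx1 was -0.21 and no longer called. Ifi44 rose from 0.874, 0.944 and 0.839 to 32.8, 31.9 and 35.7 CPM (5.24 ± 0.14 (SE), adjusted p = 9.58e-33). Ifi47, an immunity-related GTPase gene whose locus overlaps Olfr56 on the same strand, rose by 0.40.

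Among membrane and secreted proteins, Rtp4, a chaperone of receptors that also limits flavivirus replication, rose from 1.21, 1.01 and 0.803 to 73.0, 70.5 and 69.5 CPM (6.16 ± 0.11 (SE), adjusted p = 3.73e-38). Bst2 rose from 69.5, 67.3 and 71.0 to 296, 308 and 281 CPM, a log2 fold change of 2.09, and Ifi27l2a from 12.4, 12.6 and 12.4 to 149, 148 and 121, a change of 3.48. The libraries of the cultures did not overlap for either. Lgals3bp changed by 0.72 and Tor3a, an ATPase of the endoplasmic reticulum, by 0.58. Ifitm3 was at 576, 533 and 564 CPM under GM-CSF and 535, 536 and 483 with EMT6 medium, overlapping and not called (-0.11 on the log2 scale).

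Of the signalling and transcription members, Slfn5, a nuclear Schlafen protein, rose most, from 12.6, 13.7 and 13.4 to 159, 139.9 and 153 CPM (3.51 on the log2 scale). Xaf1, a pro-apoptotic zinc finger protein, rose by 2.93, Trim30a, a dampener of TLR signalling from a family of close copies, by 1.40 and Parp14, a mono-ADP-ribosyltransferase, by 1.02. Dtx3l, a ubiquitin ligase whose gene overlaps Parp9 on the opposite strand, changed by 0.30 and the nuclear body protein gene Sp100 by 0.26. Stat2 itself was at 109, 110.2 and 94.6 and 78.1, 70.0 and 78.4 CPM (-0.46 ± 0.06 (SE), adjusted p = 1.67e-09), and this turned to 0.032 with library sizes alone and 0.028 with the filter at a mean of 5 CPM. Cxcl10, which attracts T and NK cells through CXCR3, rose from 0.534, 0.692 and 1.06 to 11.9, 11.0 and 9.33 CPM, a log2 fold change of 3.75.

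Set against the promoters, the 17 members with an ISRE core had a median log2 fold change of 3.46 with EMT6 medium in WT, 14 higher and 1 lower. The 11 with a promoter and no match had a median of 1.26, all 11 higher, and the 11 for which no promoter was on hand had 2.55. The members without a match included Ifit2, which rose by 5.15, and only annotated starts were searched.

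In labelled-deficient marrow EMT6 medium raised 30 of the 39 members and 7 were called lower, against 54.3% and 32.9% of all genes. The median of the members was 2.30, that of all genes tested 0.83 and that of the 11170 genes with a mean of at least 5 CPM -0.64. A total of 23 members rose at least 2-fold, and all 30 were also called higher in WT. The share of all genes that did either is not given, so these 2 counts stand without a background. The alternatives kept 28 of the 30 calls, and Ddx58 and Dtx3l were the exceptions, at -0.12 and -0.08 with the size factors of DESeq2. Rsad2 went from 1.59, 1.58 and 1.79 to 146, 138 and 143 CPM (6.43 ± 0.09 (SE), adjusted p = 1.00e-41), the largest change in this genotype. Ifit3 went from 0.177, 0.122 and 0.0618 to 7.78, 6.43 and 8.85 (5.86 ± 0.28 (SE), adjusted p = 4.82e-23), Ifit2 from 3.72, 3.37 and 2.35 to 58.0, 51.4 and 57.3 (4.11 ± 0.11 (SE), adjusted p = 1.15e-32) and Rtp4 from 1.82, 1.95 and 2.04 to 55.0, 58.8 and 63.7 (4.93 ± 0.10 (SE), adjusted p = 5.79e-36). None of these overlapped between cultures.

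Ifi27l2a ranked higher here than in WT, going from 7.97, 8.37 and 9.21 to 165, 167 and 193 CPM (4.37 ± 0.08 (SE), adjusted p = 1.58e-37). Isg15 (4.10 ± 0.10 (SE), adjusted p = 7.79e-34), Ifi44 (4.09 ± 0.11 (SE), adjusted p = 1.22e-31), Mx2 (4.01 ± 0.18 (SE), adjusted p = 2.75e-24), Cxcl10 (3.76 ± 0.19 (SE), adjusted p = 1.02e-21) and Oasl1 (3.40 ± 0.11 (SE), adjusted p = 5.30e-29) completed the largest rises among members of at least 5 CPM. Isg15 reached 58.4, 61.5 and 62.1 CPM and Cxcl10 10.4, 10.5 and 11.4. Ifit3b had 4 counts over the GM-CSF and 72 over the EMT6 medium libraries, a ratio of 24.8 (9.28 to 93.5). Its 1.58 ± 0.253 CPM (SD, n = 3) in these EMT6 medium libraries compares with 1.05 CPM expected for its length from reads in no annotated feature, or 0.5002 from receptor genes.

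The falls in labelled-deficient marrow were small and most rested on the scaling. Ifih1 was at 36.8, 33.3 and 34.7 CPM under GM-CSF and 17.9, 21.8 and 19.0 with EMT6 medium (-0.84 ± 0.07 (SE), adjusted p = 4.59e-14), and this was the only fall kept by the alternative scalings, filters and backgrounds. Lgals3bp (-0.39 ± 0.05), Tor3a (-0.43 ± 0.06), Ifi47 (-0.37 ± 0.10), Mx1 (-0.36 ± 0.11), Eif2ak2 (-0.27 ± 0.07) and Ifitm3 (-0.14 ± 0.06) were the other 6. With library sizes alone Lgals3bp turned to 0.22, Tor3a to 0.19, Ifi47 to 0.24, Mx1 to 0.26, Eif2ak2 to 0.34 and Ifitm3 to 0.47. Their rise in WT, where there was one, is given above.

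**Figure D2:**
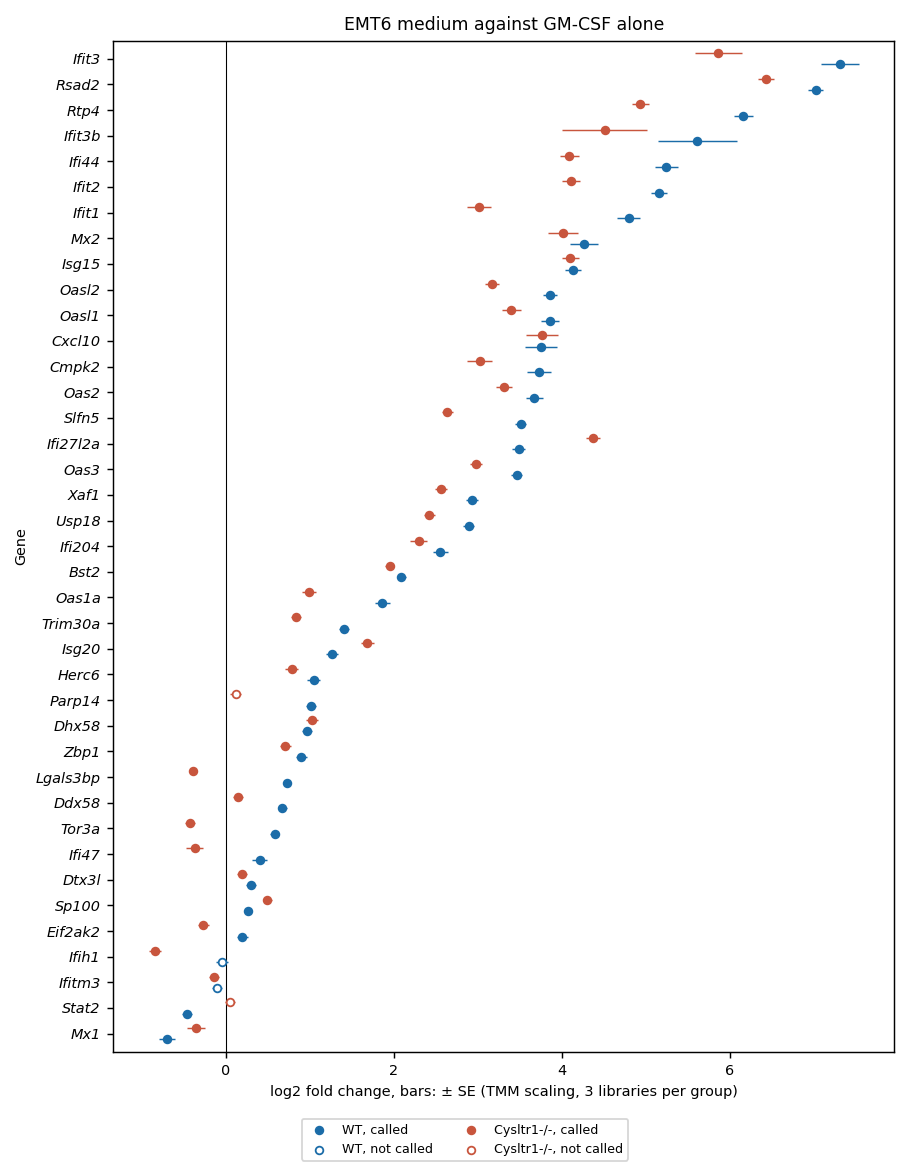
Log2 fold change with EMT6 medium against GM-CSF alone (x axis) for each of the 39 genes (y axis, ordered by the WT value), in WT (blue) and labelled-deficient (red) marrow, with bars of ± SE and filled points for called genes. The red point lies left of the blue point for 32 of the 39 genes, and Ifi27l2a is the clearest exception.

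Within EMT6 medium, 27 members were lower and 2 higher in labelled-deficient than in WT marrow, against 19.8% lower and 32.3% higher among all genes. The median of the members was -0.48, that of all genes tested 0.27 and that of the 11170 genes with a mean of at least 5 CPM -0.15. Of the 26 members that rose at least 2-fold in WT, 17 were lower, 7 not called and 2 higher. These 26 were picked by their level in the same WT EMT6 medium libraries, which by itself leans the split toward lower. The split of all genes with such a rise is not given, so these counts stand without a background. A total of 22 of the 27 lower calls held in all alternative scalings, filters, backgrounds and fits with a library left out. The exceptions were Ifit3b, Oasl1, Oasl2, Bst2 and Rtp4, and Bst2 turned to 0.07 with library sizes alone. With library sizes alone 22 members were called lower and 8 higher, against 2473 and 14312 of all 28334 genes under that scaling.

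The largest differences were in Ifit2, Ifit3 and Ifit1. Ifit2 was at 158, 148 and 156 CPM in WT and 58.0, 51.4 and 57.3 in labelled-deficient EMT6 medium libraries (-1.47 ± 0.07 (SE), adjusted p = 1.98e-21). Ifit3 was at 20.9, 21.1 and 20.6 against 7.78, 6.43 and 8.85 CPM (-1.44 ± 0.12 (SE), adjusted p = 1.77e-13) and Ifit1 at 27.7, 31.5 and 27.3 against 11.2, 13.4 and 12.1 (-1.24 ± 0.10 (SE), adjusted p = 1.98e-14). The libraries of the genotypes did not overlap for any of the 3. Ifit3b differed by -0.72, and its call was lost under some alternatives. Rsad2 was at 269, 261 and 275 against 146, 138 and 143 CPM (-0.91 ± 0.05 (SE), adjusted p = 2.67e-18).

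Lower levels were also found outside the IFIT genes and Rsad2. Lgals3bp was at 217, 208 and 205 CPM in WT and 101, 104 and 106 in labelled-deficient libraries (-1.02 ± 0.05 (SE), adjusted p = 1.75e-20). Parp14 (-0.87 ± 0.06 (SE), adjusted p = 4.74e-16), Tor3a (-0.70 ± 0.06 (SE), adjusted p = 2.36e-13) and Trim30a (-0.66 ± 0.06 (SE), adjusted p = 2.76e-13) were lower too, with no overlap between genotypes. The remaining lower members lay between -0.89 (Ifi47) and -0.17 (Bst2), among them Oas3 (-0.66), Slfn5 (-0.58), Ddx58 (-0.56), Ifitm3 (-0.55) and Usp18 (-0.39). Eif2ak2 differed by -0.62, Cmpk2 by -0.55 and Ifi204 by -0.52.

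Isg15 went another way from the IFIT genes. It was at 58.2, 63.9 and 53.6 CPM in WT and 58.4, 61.5 and 62.1 in labelled-deficient EMT6 medium libraries, overlapping, with a log2 difference of 0.05 ± 0.07 (SE), adjusted p = 0.540. Cxcl10 (0.00 ± 0.13), Isg20 (0.01 ± 0.06), Xaf1 (-0.02 ± 0.06), Herc6 (0.04 ± 0.07), Oas2 (-0.06 ± 0.07), Mx2 (-0.19 ± 0.11), Mx1 (-0.24 ± 0.11), Zbp1 (-0.13 ± 0.06) and Stat2 (-0.11 ± 0.06) were not called either. Ifi27l2a was higher in labelled-deficient marrow, at 165, 167 and 193 against 149, 148 and 121 CPM (0.33 ± 0.06 (SE), adjusted p = 2.78e-05). Ifi44 was at 41.1, 35.1 and 39.3 against 32.8, 31.9 and 35.7 CPM (0.21 ± 0.08 (SE), adjusted p = 0.0246). Its libraries overlapped, and the call was lost under several alternatives.

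The difference between the EMT6 medium responses of the genotypes was tested as an interaction. It was negative, a lower log2 fold change in labelled-deficient marrow, for 20 members and positive for 4, against 12.3% and 13.2% of all genes. The median of the members was -0.47, that of all genes tested 0.17 and that of the 11170 genes with a mean of at least 5 CPM -0.058. Lgals3bp (-1.12 ± 0.07 (SE), adjusted p = 8.58e-17), Tor3a (-1.01 ± 0.08 (SE), adjusted p = 1.42e-13), Parp14 (-0.90 ± 0.08 (SE), adjusted p = 8.26e-12), Slfn5 (-0.87 ± 0.09 (SE), adjusted p = 3.72e-10), Ifih1 (-0.80 ± 0.10 (SE), adjusted p = 1.55e-08) and Ifit1 (-1.78 ± 0.24 (SE), adjusted p = 1.35e-07) had the smallest p among the negative ones. Ifit2 differed by -1.05 ± 0.18 and was called. Ifit3, with few counts under GM-CSF, differed by -1.44 ± 0.74 and was not called (adjusted p = 0.157). The positive ones were Ifi27l2a (0.89 ± 0.12 (SE), adjusted p = 1.42e-07), Stat2 (0.51 ± 0.08 (SE), adjusted p = 3.93e-06), Isg20 (0.42 ± 0.10 (SE), adjusted p = 0.00121) and Sp100 (0.23 ± 0.07 (SE), adjusted p = 0.00922). The last 2 lost the call under some alternatives, while Ifi27l2a and Stat2 kept it in all.

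For all 4 positive members, Ifi27l2a, Stat2, Isg20 and Sp100, the interaction came with a lower start in labelled-deficient marrow. Stat2 was at 70.5, 68.0 and 64.3 CPM under GM-CSF there, below the 109, 110.2 and 94.6 of WT, and at 74.2, 67.2 and 68.4 against 78.1, 70.0 and 78.4 with EMT6 medium. Isg20 was at 12.6, 14.7 and 13.8 against 17.9, 17.5 and 19.3 CPM under GM-CSF and at 42.6, 46.2 and 43.6 against 45.7, 44.9 and 41.0 with EMT6 medium. The genotypes were apart under GM-CSF and overlapped in EMT6 medium for both genes. Ifi27l2a was at 7.97, 8.37 and 9.21 against 12.4, 12.6 and 12.4 CPM under GM-CSF. With EMT6 medium it was at 165, 167 and 193 against 149, 148 and 121. Among the negative members, Oas1a, Oasl2, Ifih1, Ifi44, Rtp4, Tor3a, Xaf1 and Slfn5 started higher in labelled-deficient marrow, by the calls under GM-CSF. The other negative members did not. With EMT6 medium all negative members were called lower by genotype except Xaf1, not called, and Ifi44, called higher. Mean Ifi44 went from 0.886 to 33.5 CPM in WT and from 2.29 to 38.5 in labelled-deficient marrow.

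**Figure D3:**
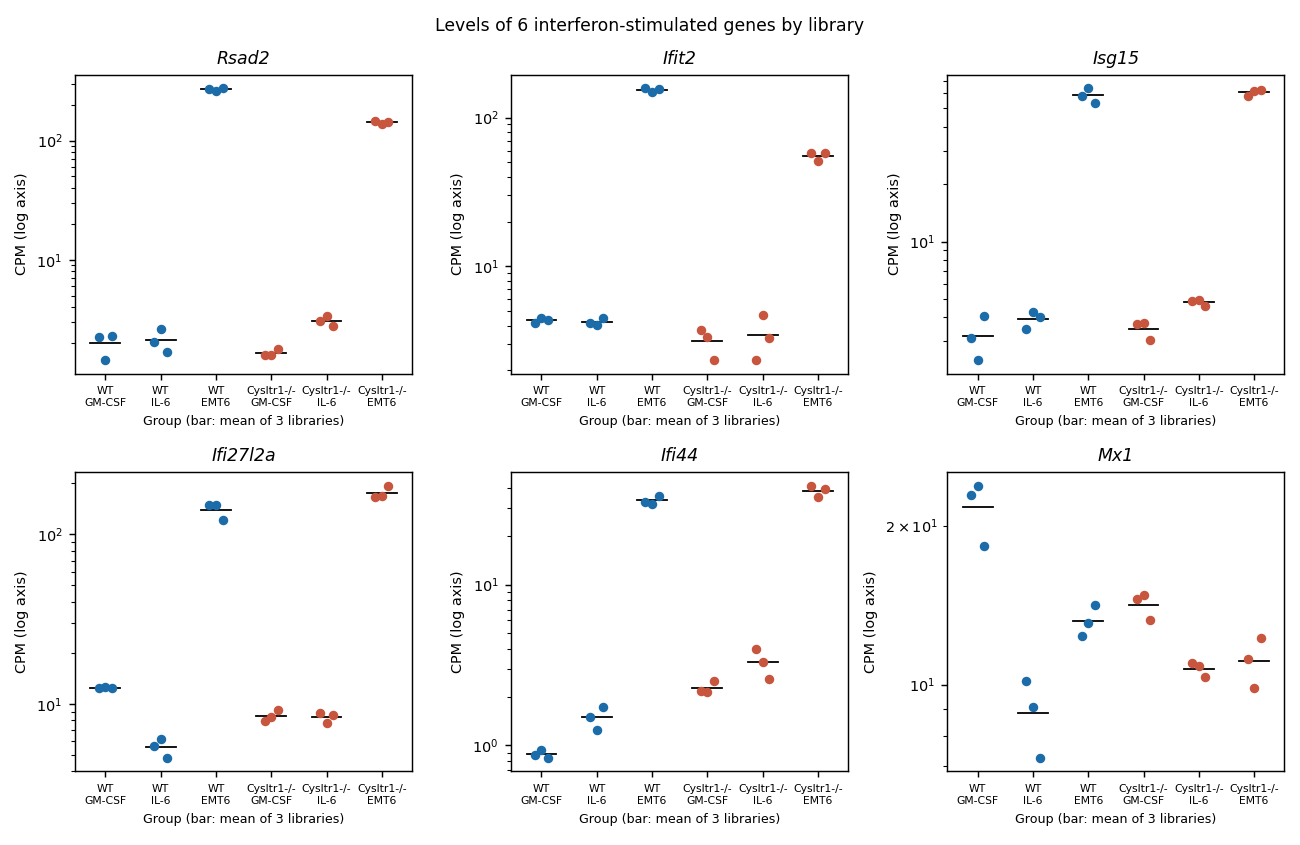
CPM by library (points, log axis) with the mean of each group (bar) for Rsad2, Ifit2, Isg15, Ifi27l2a, Ifi44 and Mx1. Rsad2 and Ifit2 are high in EMT6 medium and higher in WT (blue) than in labelled-deficient (red) marrow, Isg15 reaches 53.6 to 63.9 CPM in both genotypes, and Mx1 is highest in WT GM-CSF libraries.

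IL-6 had smaller effects on the members. In WT marrow 14 were called higher and 8 lower, against 10.4% and 11.3% of all genes, with a median of 0.12 for the members and -0.03 for all genes tested. In labelled-deficient marrow 14 were called higher and 2 lower, against 5.55% and 8.78% of all genes, with medians of 0.09 and 0.02. Of the 14 higher members in each genotype, 9 were shared (64.3% of each list): Ifit1, Oas2, Oasl1, Oasl2, Ifi44, Rtp4, Lgals3bp, Trim30a and Slfn5. The shared part over all genes is not given. Leaving out 1 IL-6 library took the count of higher members to 9 in each genotype (replicate 1 in both). The summed level of the neutrophil markers was 5191 to 5351 CPM in WT and 1902 to 1947 CPM in labelled-deficient IL-6 libraries, below GM-CSF alone in both.

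Slfn5 had the smallest p in both genotypes. It was at 12.6, 13.7 and 13.4 CPM under GM-CSF and 25.4, 25.8 and 25.3 with IL-6 in WT (0.94 ± 0.07 (SE), adjusted p = 1.37e-14), and at 15.5, 16.9 and 16.1 and 34.0, 34.0 and 31.8 in labelled-deficient marrow (1.04 ± 0.07 (SE), adjusted p = 2.28e-16). Oas2 went from 4.03, 2.89 and 3.36 to 8.72, 7.88 and 6.42 CPM in WT (1.14 ± 0.12 (SE), adjusted p = 5.20e-10) and from 4.43, 4.35 and 3.90 to 8.34, 8.06 and 8.57 in labelled-deficient marrow (0.97 ± 0.12 (SE), adjusted p = 1.97e-08). Lgals3bp rose by 0.37 ± 0.05 and 0.37 ± 0.05, and Rtp4 by 0.90 ± 0.22 and 0.94 ± 0.16. In each of these the IL-6 libraries lay above the GM-CSF libraries of their genotype. Ifih1 was higher in WT (0.32 ± 0.06 (SE), adjusted p = 1.22e-04), and Trim30a (0.35 ± 0.06 (SE), adjusted p = 1.40e-05) and Oasl2 (0.48 ± 0.10 (SE), adjusted p = 5.55e-04) in labelled-deficient marrow.

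Mx1 and Bst2 were lower with IL-6 in both genotypes. Mx1 fell from 22.9, 23.8 and 18.3 to 10.2, 9.07 and 7.27 CPM in WT (-1.28 ± 0.10 (SE), adjusted p = 3.47e-14) and from 14.5, 14.8 and 13.2 to 11.0, 10.8 and 10.3 in labelled-deficient marrow (-0.41 ± 0.10 (SE), adjusted p = 0.00318). Bst2 fell from 69.5, 67.3 and 71.0 to 49.5, 55.2 and 50.9 CPM in WT (-0.42 ± 0.06 (SE), adjusted p = 4.38e-08) and from 66.6, 67.7 and 69.3 to 60.9, 57.9 and 62.6 in labelled-deficient marrow (-0.16 ± 0.05 (SE), adjusted p = 0.0333), where the call was lost under some alternatives. Ifi27l2a fell in WT, from 12.4, 12.6 and 12.4 to 5.67, 6.22 and 4.81 CPM (-1.17 ± 0.11 (SE), adjusted p = 1.48e-11), and was at 7.97, 8.37 and 9.21 and 8.84, 7.72 and 8.57 CPM in labelled-deficient marrow, not called. Stat2 (-0.42 ± 0.06 (SE), adjusted p = 1.24e-07), Ifitm3 (-0.27 ± 0.06 (SE), adjusted p = 3.92e-04) and Ifi47 (-0.30 ± 0.09 (SE), adjusted p = 0.0107) fell in WT.

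**Figure D4:**
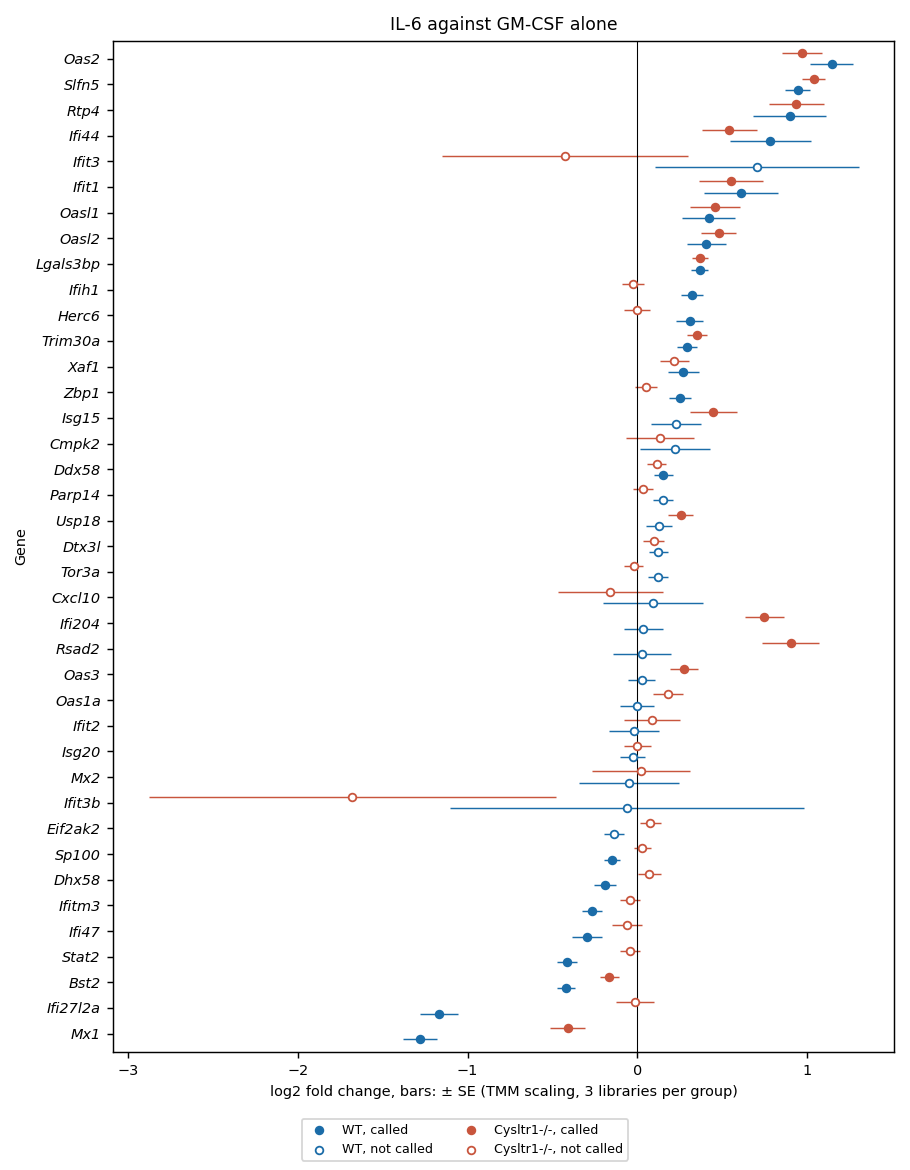
Log2 fold change with IL-6 against GM-CSF alone (x axis) for each of the 39 genes (y axis, ordered by the WT value), in WT (blue) and labelled-deficient (red) marrow, with bars of ± SE and filled points for called genes. Most points lie within 1 log2 unit of 0, Mx1 and Ifi27l2a are lowest in WT, and the wide bars belong to genes with few counts.

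The IL-6 response differed by genotype for 7 members, 6 upward and 1 downward, against 2.92% and 4.46% of all genes. Ifi27l2a (1.16 ± 0.16 (SE), adjusted p = 8.45e-07), Mx1 (0.87 ± 0.14 (SE), adjusted p = 3.03e-05), Stat2 (0.37 ± 0.08 (SE), adjusted p = 0.00184), Ifi204 (0.71 ± 0.16 (SE), adjusted p = 0.00236) and Rsad2 (0.88 ± 0.24 (SE), adjusted p = 0.0145) were among the upward ones, with Bst2. The call for Rsad2 was lost without WT GM-CSF replicate 1 or 3 or WT IL-6 replicate 3, at 0.73 to 0.82. Rsad2 was at 2.23, 1.45 and 2.30 and 2.06, 2.64 and 1.70 CPM in WT and at 1.59, 1.58 and 1.79 and 3.09, 3.40 and 2.77 in labelled-deficient marrow, where its rise was called (0.90 ± 0.17 (SE), adjusted p = 5.98e-05). Ifi204 was at 7.47, 5.66 and 6.02 and 6.10, 6.94 and 6.67 CPM in WT and at 4.52, 5.48 and 6.25 and 9.77, 8.55 and 8.65 in labelled-deficient marrow (0.75 ± 0.11 (SE), adjusted p = 1.94e-06). Ifih1 was the downward one (-0.35 ± 0.09 (SE), adjusted p = 0.0103), and its call was lost without the labelled-deficient GM-CSF replicate 1.

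Outside EMT6 medium members were called in both directions by genotype, with lower calls near the share of all genes with IL-6. Under GM-CSF alone 9 were higher and 9 lower in labelled-deficient marrow (23.1% each), against 10.1% and 17.2% of all genes. The median was 0.04 for the members, 0.04 for all genes tested and -0.09 for the 11170 genes with a mean of at least 5 CPM. With the filter at a mean of 5 CPM, 15 of 38 members were higher and 8 lower, against 4268 and 3061 of 13266 genes. With IL-6 14 were higher (35.9%) and 7 lower (17.9%), against 12.1% and 18.4% of all genes. The medians were 0.10, 0.09 and -0.12. With that filter 21 were higher and 4 lower, against 4327 and 2923 genes. In both cultures 7 members were higher (Oas1a, Oasl2, Ifi44, Rtp4, Tor3a, Xaf1 and Slfn5) and 6 lower (Dhx58, Isg20, Ifitm3, Stat2, Dtx3l and Sp100). Of the 7 higher ones, 5 were lower by genotype in EMT6 medium: Oas1a, Oasl2, Rtp4, Tor3a and Slfn5. The shares of all genes called in these ways across cultures are not given, so these joint counts stand without a background. Leaving out WT IL-6 replicate 3 took the higher count with IL-6 to 9.

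Ifi44 was at 0.874, 0.944 and 0.839 CPM in WT and 2.17, 2.15 and 2.54 in labelled-deficient GM-CSF libraries (1.36 ± 0.22 (SE), adjusted p = 2.21e-06), and at 1.503, 1.24 and 1.74 and 4.01, 3.30 and 2.59 with IL-6 (1.12 ± 0.18 (SE), adjusted p = 1.56e-06). It was the only member called higher in all 3 cultures, though its call in EMT6 medium was lost under several alternatives. Its mean of 0.886 CPM in WT GM-CSF libraries compares with 0.641 expected for its length from reads in no annotated feature. The call under GM-CSF was kept with that background subtracted. Rtp4 was at 1.21, 1.01 and 0.803 against 1.82, 1.95 and 2.04 CPM under GM-CSF, a log2 difference of 0.96, and at 1.93, 2.07 and 1.58 against 3.73, 4.37 and 3.03 with IL-6 (1.00 ± 0.16 (SE), adjusted p = 2.03e-06). Tor3a was higher under GM-CSF (0.31 ± 0.06 (SE), adjusted p = 2.47e-05), and Oas1a (0.58 ± 0.09 (SE), adjusted p = 2.13e-06) and Slfn5 (0.39 ± 0.06 (SE), adjusted p = 3.55e-06) with IL-6.

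Sp100, Dhx58, Ifitm3 and Dtx3l were lower in labelled-deficient marrow in all 3 cultures, and the share of all genes that were is not given. Sp100 was at 121, 118 and 113 CPM in WT and 72.3, 74.4 and 74.1 in labelled-deficient GM-CSF libraries (-0.67 ± 0.05 (SE), adjusted p = 2.11e-15). With IL-6 it was at 103, 109 and 105 and 77.2, 74.8 and 73.2 CPM (-0.49 ± 0.05 (SE), adjusted p = 3.37e-11), and with EMT6 medium at 144, 139 and 137 and 105, 101 and 105, a difference of -0.44. The genotypes were apart in every culture. Ifitm3 was at 576, 533 and 564 and 388, 380.2 and 407 CPM under GM-CSF (-0.51 ± 0.06 (SE), adjusted p = 1.21e-09) and differed by -0.29 ± 0.06 (SE), adjusted p = 1.32e-04, with IL-6, a call lost with the filter at a mean of 5 CPM (-0.14) and with the receptor background subtracted (-0.16). Dhx58 differed by -0.56 ± 0.07 (SE), adjusted p = 2.80e-09, under GM-CSF and by -0.30 ± 0.07 (SE), adjusted p = 3.55e-04, with IL-6, and Dtx3l by -0.32 ± 0.06 (SE), adjusted p = 2.08e-05, with IL-6.

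Stat2 (-0.62 ± 0.06 (SE), adjusted p = 3.22e-12), Mx1 (-0.59 ± 0.09 (SE), adjusted p = 1.95e-06) and Isg20 (-0.42 ± 0.08 (SE), adjusted p = 3.32e-05) were lower under GM-CSF. With IL-6 the differences were -0.25 ± 0.06 (SE), adjusted p = 6.63e-04, for Stat2 and -0.39 ± 0.08 (SE), adjusted p = 9.79e-05, for Isg20. The call of Stat2 with IL-6 was lost at -0.11 with library sizes alone or the filter and at -0.13 with the receptor background subtracted. Ifi27l2a changed side: it was lower in labelled-deficient marrow under GM-CSF (-0.56 ± 0.10) and higher with IL-6 (0.60 ± 0.12 (SE), adjusted p = 8.58e-05). Ifih1 and Mx1 were also called in opposite directions in these cultures, with differences of 0.17 and -0.17 for Ifih1 and of -0.59 and 0.28 for Mx1. Under some alternatives both calls of Ifih1 and the call of Mx1 with IL-6 were lost.

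**Figure D5:**
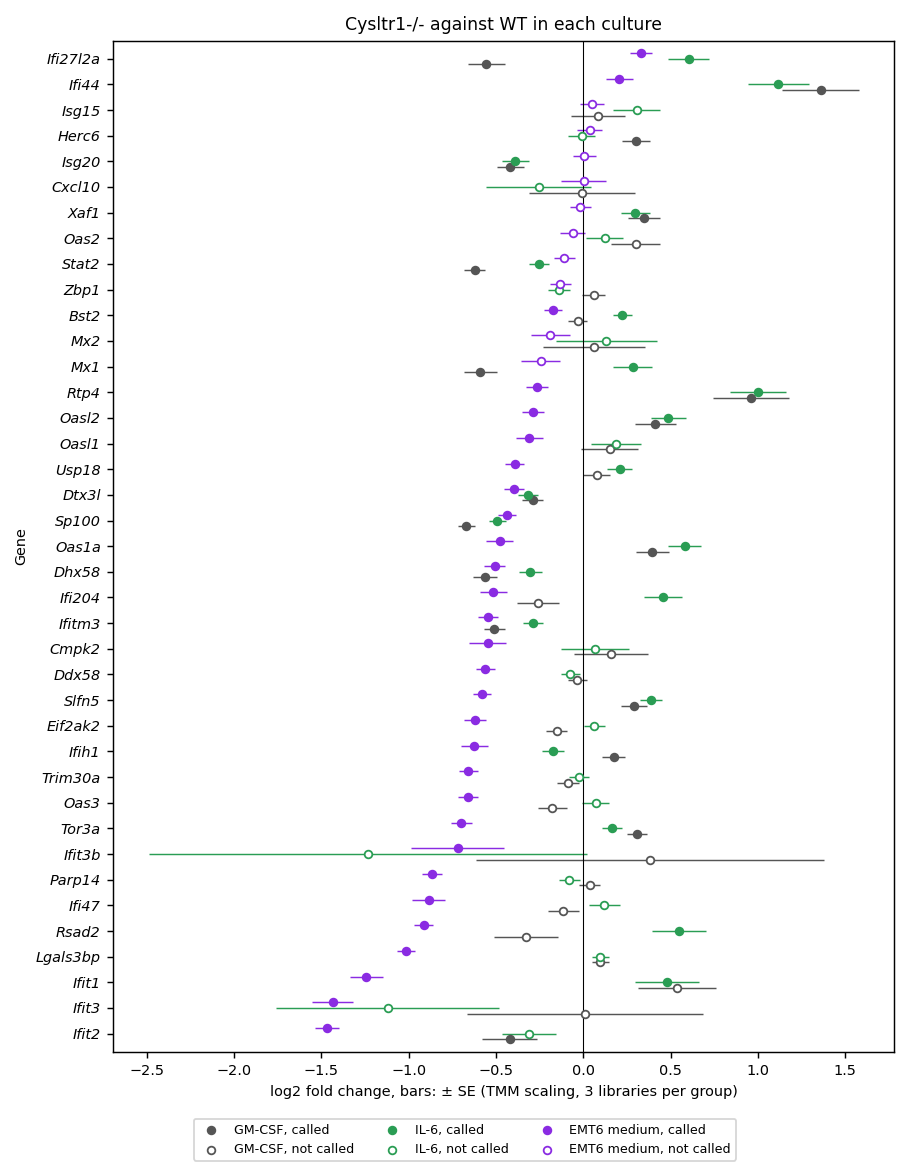
Log2 difference between labelled-deficient and WT marrow (x axis) for each of the 39 genes (y axis, ordered by the value in EMT6 medium), under GM-CSF (grey), IL-6 (green) and EMT6 medium (purple), with bars of ± SE and filled points for called genes. The purple points lie left of 0 for 33 of the 39 genes, with Ifit2 at the bottom, while grey and green points lie on both sides.

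The rest of the pathway was read from 52 listed genes, of which Mb21d1 was not matched by symbol and 42 passed the filter. With EMT6 medium in WT 15 rose and 19 fell, with a median of -0.02, and in labelled-deficient marrow 16 rose and 21 fell, with a median of -0.20. Of all genes tested, 46.8% rose and 34.5% fell in WT, and 54.3% rose and 32.9% fell in labelled-deficient marrow, and the counts by list below are to be read against these shares and, for the genotype within EMT6 medium, against 32.3% higher and 19.8% lower. For the genotype within EMT6 medium with library sizes alone, 2473 of 28334 genes were lower and 14312 higher. Among the 14 interferon ligands only 5 had enough counts to be tested. Ifnb1 (interferon beta) had 0 counts in all 12 libraries without EMT6 medium. It had 16, 10 and 13 counts in the WT and 17, 17 and 18 in the labelled-deficient EMT6 medium libraries. Against a floor of 3 counts over the GM-CSF group, the ratio was 14.7 in WT and 23.9 in labelled-deficient marrow. These ratios are not lower bounds, as they leave out counting error. The exact binomial interval, set as for Ifit3b, began at 11.4 in WT and 18.7 in labelled-deficient marrow, with no upper end. The mean of Ifnb1 was 0.685 ± 0.0721 CPM (SD, n = 3) in WT EMT6 medium libraries and 1.15 ± 0.191 in the labelled-deficient ones. This compares with 0.220 and 0.395 CPM expected for its length from reads in no annotated feature. The difference between genotypes in EMT6 medium was not called for Ifnb1 (0.72 ± 0.38 (SE), adjusted p = 0.110). Ifng changed by 1.09 in WT and 2.68 in labelled-deficient marrow, with at most 27 counts in a library. Of the 5 tested ligands, 2 were called higher in WT and 5 in labelled-deficient marrow. The level expected from reads in no annotated feature rose too. At the length of Ifit1 it went from 0.278 to 0.780 CPM in WT and from 0.333 to 1.40 in labelled-deficient marrow. The part of this background in the Ifng change was not tested. The listed interferon alpha genes had at most 19 counts over a group.

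The receptor chains rose with EMT6 medium. Ifnar2 went from 80.7, 78.5 and 77.2 to 216, 205 and 197 CPM in WT (1.39 ± 0.05 (SE), adjusted p = 3.92e-27) and from 71.7, 74.9 and 79.9 to 147, 150.3 and 150.5 in labelled-deficient marrow (0.99 ± 0.05 (SE), adjusted p = 1.67e-21). Ifnar1 rose by 0.98 ± 0.05 and 0.78 ± 0.05; it falls outside the rule for named genes and was picked as the partner chain after its values were seen. The kinase genes Jak2 (-1.62 ± 0.05) and Tyk2 (-1.53 ± 0.07) and the interferon gamma receptor gene Ifngr1 (-0.94 ± 0.05) fell in WT. Of the 9 receptor and kinase genes, 4 rose and 3 fell in WT, 3 rose and 4 fell in labelled-deficient marrow, and all 9 were lower by genotype within EMT6 medium, against 4 with library sizes alone.

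Transcription factors moved apart. Irf7, which amplifies interferon production, rose from 28.4, 28.0 and 25.0 to 304, 290.3 and 288 CPM in WT (3.45 ± 0.06 (SE), adjusted p = 2.72e-39) and from 39.2, 39.2 and 39.2 to 226, 244 and 263 in labelled-deficient marrow (2.64 ± 0.06 (SE), adjusted p = 1.09e-35). Irf9, the DNA-binding partner of STAT2, rose by 0.78 ± 0.06 in WT and 0.19 ± 0.06 in labelled-deficient marrow, where it turned to -0.07 with the size factors of DESeq2. Irf5 fell from 399, 393 and 364 to 32.3, 32.0 and 32.2 CPM in WT (-3.58 ± 0.06 (SE), adjusted p = 1.61e-40), and Irf3 changed by -0.88 ± 0.06. Within EMT6 medium 6 of the 8 listed factors were lower in labelled-deficient marrow and none was called higher, against 3 lower and 2 higher with library sizes alone. The interaction was negative for 4, among them Irf7 (-0.81 ± 0.08 (SE), adjusted p = 6.07e-11) and Irf9 (-0.58 ± 0.08 (SE), adjusted p = 1.16e-07).

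Among 12 sensors and adaptors measured, 2 rose and 7 fell with EMT6 medium in WT, of which Ticam1 turned to 0.016 and Tlr7 to 0.051 with library sizes alone (both named after their values were seen). Tmem173 (STING, the adaptor for cytosolic DNA) went from 86.6, 85.7 and 83.3 to 13.4, 13.0 and 13.4 CPM (-2.68 ± 0.06 (SE), adjusted p = 3.96e-34). Tlr4 (-1.48 ± 0.06), Myd88 (-1.46 ± 0.06) and Mavs (-0.74 ± 0.06), the receptor for lipopolysaccharide and the adaptors of Toll-like and RIG-I-like receptors, fell too. Of 6 negative regulators 5 fell, including Socs1 (-1.03 ± 0.05), Ptpn6 (-0.89 ± 0.05) and Ptpn11 (-0.99 ± 0.06), and Socs3 rose (0.76 ± 0.05). Pias1, also named after its values were seen, was among the 5 and turned to 0.25 with library sizes alone. Of the ISG15 conjugation pair, the carrier enzyme gene Ube2l6 rose (0.94 ± 0.08) and the activating enzyme gene Uba7 fell (-0.45 ± 0.07), which turned to 0.041 with library sizes alone.

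Markers of other cell types were read beside these results. In WT EMT6 medium libraries the 7 plasmacytoid dendritic cell genes summed to 220 to 239 CPM, against 141 to 153 under GM-CSF, and in labelled-deficient marrow to 189.5 to 198 against 135 to 138. The defining Siglech was at 1.32, 2.62 and 2.07 CPM in WT EMT6 medium libraries and at 1.55, 2.77 and 2.30 under GM-CSF, Klk1 had 0 counts with EMT6 medium there, and Spib went from 31.9 to 38.4 to 103 to 123 CPM. The 8 lymphoid genes summed to 166 to 179 against 72.5 to 74.0 CPM in WT, the 7 monocyte and macrophage genes to 1720 to 1852 against 2761 to 3035, and the 4 fibroblast-like genes to 28.5 to 32.2 against 6.17 to 10.8. In labelled-deficient marrow these were 111 to 115 against 50.4 to 52.9, 1009 to 1153 against 2182 to 2233, and 40.7 to 69.1 against 10.2 to 10.7 CPM. The 7 epithelial genes summed to 39.9 to 43.4 against 818 to 879.7 CPM in WT libraries, and to 49.6 to 64.1 against 1072 to 1100.0 CPM in the labelled-deficient ones. Of these, Krt5 had at most 2 counts over a group, Krt14 was at 0.427 to 0.742 CPM and Krt8 at 0.371 to 1.40 in WT EMT6 medium libraries. Cdh1, which made up most of the sum under GM-CSF, went from 805 to 868 to 26.3 to 30.4 CPM. The 4 erythroid genes summed to 2.31 to 3.60 CPM in WT and 5.99 to 8.00 in labelled-deficient EMT6 medium libraries, against 2.64 to 2.81 and 3.98 to 4.56 under GM-CSF. With EMT6 medium in WT, 4 plasmacytoid genes rose and 2 fell, 6 lymphoid rose and 2 fell, 2 monocyte and macrophage genes rose and 5 fell, all 8 neutrophil genes fell and all 4 fibroblast-like genes rose. The part of these cells in the changes of the interferon-stimulated genes was not tested.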

How the data were processed

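Poly(A) RNA of 18 libraries was sequenced by the authors. Per the submitters' processing notes, HISAT2 2.1.0, HTSeq 0.13.5 and DESeq2 1.34.0 were used with the mm10 build. The annotation and the strand setting of the counting are not given in the sources used here, so reads of overlapping genes may be shared. The values used are the deposited whole-number read counts per gene, and the deposited normalized table was not used. Rows that name no gene stayed out of totals and tests. They include the reads in no feature, 12.8% to 50.4% per library.

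Gene IDs were matched to GENCODE M21 symbols. Counts were scaled by TMM and tested with edgeR 4.0.16 (quasi-likelihood, filterByExpr, R 4.3.3) over all 18 libraries with 1 mean per group. This gave 28334 genes tested and 12 residual degrees of freedom. P-values were adjusted by Benjamini-Hochberg within each of 9 comparisons, 2 of them interactions. CPM values are TMM-scaled, and TPM values use the summed exon length. No replicate pair had counts alike enough to be 1 library deposited in duplicate: chi-square per degree of freedom was 1.64 to 7.51. Intervals cover counting error only, and ratios against a floor of counts are not lower bounds. The script was tested on simulated data.

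Alternatives were DESeq2 1.42.0, its size factors, library sizes alone, no filter and a filter at a mean of 5 CPM, a replicate block, a fit of the compared groups alone, each library left out in turn, and subtraction of a background per length from reads in no feature or from receptor genes. Fold change, SE and adjusted p are given for the 10 largest called changes of at least 5 CPM with EMT6 medium, up to 8 members with the smallest p for IL-6 and genotype, up to 6 for interactions, those against the main direction, and up to 4 genes per pathway list. Members, lists and tests were chosen with earlier results of these data known. Other values given beside these are levels or fold changes alone. Values of 1 listed pathway gene are not reported here.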

Additional observations from a re-analysis of the deposited data

Results flagged for a closer look

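The response to EMT6 medium differed between WT and labelled-deficient marrow, by the interaction test in edgeR over all genes with Benjamini-Hochberg adjustment, for 20 members in the negative and 4 in the positive direction. Those with the smallest p, and all 4 positive ones, are given here, and other called members had differences as large, such as Rtp4 (-1.23) and Ifi44 (-1.15). Both Rtp4 and Ifi44 started higher in labelled-deficient marrow under GM-CSF. The log2 difference (labelled-deficient minus WT response) was -1.78 for Ifit1, -1.12 for Lgals3bp, -1.01 for Tor3a, -0.90 for Parp14, -0.87 for Slfn5 and -0.80 for Ifih1. It was 0.89 for Ifi27l2a, 0.51 for Stat2, 0.42 for Isg20 and 0.23 for Sp100, and these 4 started lower in labelled-deficient marrow under GM-CSF.

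The response to IL-6 differed by 1.16 for Ifi27l2a, 0.88 for Rsad2, 0.87 for Mx1, 0.71 for Ifi204, 0.37 for Stat2 and -0.35 for Ifih1, the 6 with the smallest p of the 7 called. Bst2 was the other, at 0.26. Stat2 and Ifi27l2a had a larger log2 fold change in labelled-deficient marrow with both additions. Both comparisons share the GM-CSF libraries, so they are not independent. No group was large enough for a test of single outlying libraries.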

How the results depend on the processing

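The counts of members called moved by over 1.5 times under these alternatives. The counts of all genes called moved with the alternatives too, and are not given beside each value here. With EMT6 medium in WT, the 2 lower members became 4 with DESeq2 or its size factors, 1 with library sizes alone and 0 with the filter at a mean of 5 CPM. With EMT6 medium in labelled-deficient marrow, the 7 lower became 1 with library sizes alone or the filter and 4 with the no-feature background subtracted. With IL-6 in labelled-deficient marrow, the 2 lower became 1 with library sizes alone or either background. By genotype under GM-CSF, the 9 higher became 15 with library sizes alone, the filter or the receptor background, and with IL-6 the 7 lower became 4 with the filter or the receptor background. By genotype in EMT6 medium, the 2 higher became 8 with library sizes alone and 1 with DESeq2, its size factors, no filter or only the compared groups. For the interaction with EMT6 medium the 4 higher became 2 without a filter. For that with IL-6 the 6 higher became 10 with only the compared groups, and the 1 lower became 2 with DESeq2, its size factors, the filter or the receptor background.

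Directions turned for Stat2 with EMT6 medium in WT, 0.032 with library sizes alone and 0.028 with the filter. In labelled-deficient marrow, library sizes alone and the filter gave 0.22 and 0.069 for Lgals3bp, 0.19 and 0.035 for Tor3a, 0.34 and 0.19 for Eif2ak2, 0.24 and 0.088 for Ifi47, and 0.26 and 0.10 for Mx1. The cause was not tested beyond the shift of all genes that the scaling makes.

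With 1 library left out the counts ran, higher and lower, from 32 to 35 and 2 to 4 with EMT6 medium in WT, from 28 to 28 and 7 to 8 in labelled-deficient marrow, from 9 to 12 and 6 to 7 with IL-6 in WT, and from 9 to 13 and 1 to 2 in labelled-deficient marrow. By genotype they ran from 7 to 9 and 8 to 9 under GM-CSF, 9 to 12 and 6 to 7 with IL-6, and 1 to 2 and 27 to 31 in EMT6 medium. For the interactions they ran from 2 to 4 and 20 to 27 with EMT6 medium, and 4 to 7 and 0 to 1 with IL-6. The 4 lower with EMT6 medium in WT came without WT GM-CSF replicate 1 or 3 or WT EMT6 medium replicate 1. The 1 lower with IL-6 in labelled-deficient marrow came without any of its GM-CSF replicates or IL-6 replicate 1 or 2, and the 1 higher by genotype in EMT6 medium without WT replicate 1 or 2 or any labelled-deficient replicate. The 2 higher for the EMT6 medium interaction came without WT GM-CSF replicate 3 or labelled-deficient GM-CSF replicate 1. Of 654 values of named results with a library left out, 625 kept direction and call and 29 lost the call, and of 837 under the other alternatives 805 kept both, 20 lost the call and 12 reversed.

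A fit with the replicate number as a block gave the same counts, higher and lower, as the fit without it: 35 and 2, 30 and 7, 14 and 8, 14 and 2, 9 and 9, 14 and 7, 2 and 27, 4 and 20, and 6 and 1. Over all same-numbered libraries of different groups, r was -0.38 to 0.26 (median 0.037), above 0.1 in 7 of 45 pairs. These pairs include those across genotypes, which cannot share marrow. Pairs within a genotype were not looked at apart, so r cannot tell whether the numbers pair samples there. Depth limits Ifit3, Ifit3b and Ifnb1 outside EMT6 medium.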
